A study of Macaca mulatta with 20 samples.

Results

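The comparison described here set the very-late corpus luteum of the rhesus macaque against the late one, and its members were chosen by the stage in each sample's title. It used 8 of the 20 arrays of the study, 4 very-late and 4 late, labelled as biological replicates. Very-late glands were taken on days 18 to 19 after the surge of luteinizing hormone, at menses, and late glands on days 14 to 16. The animals were female with natural, normal menstrual cycles, each gland was removed at laparotomy and frozen at once, and neither strain, age nor genotype was among the labels used here. The other 12 arrays, from the early, mid and mid-late stages, entered the model only to estimate the spread between glands of one stage and to place the values on the course of luteal life. Per the labels, late glands were losing function and very-late glands, past that loss, were breaking down as a tissue. The stage was set from days since the surge, timed by serum estradiol, so the progesterone output of a given gland is not known here.

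The corpus luteum forms from the follicle wall after ovulation and makes progesterone from cholesterol. Without pregnancy it stops secreting (functional regression) and is then taken apart (structural regression), when luteal cells die, vessels regress, and macrophages enter and clear cell remains, leaving a scar. Luteal cells carry the enzymes of steroid synthesis, which sit in mitochondria and the endoplasmic reticulum, whereas macrophages are known for lysosomes rich in proteases, for scavenger receptors and for chemokines.

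All values are on a log2 scale, so a difference of 1 is a doubling, and each is the deposited signal of 1 probe set on 1 array. Values from single arrays are given in the order of replicates 1 to 4 of a stage. Each change is the very-late mean minus the late mean ± the standard error that limma gave it (n = 4 glands per stage), and "rose" and "fell" are used only of genes with an adjusted p under 0.05 over all 52707 probe sets. Array backgrounds were judged from 683 probe sets for viral genomes, whose 95th percentile was 4.29. A stage mean below that was taken as not clearly above background and the change then given as "at least" the fold over 4.29. A probe set measures its own target, so levels are not compared between genes. Of 130 genes that the naming rule took and that passed, 79 had over 1 probe set. In 34 of these all probe sets passed the same way, in 25 only 1 passed, and in 5 a probe set passed the other way. Where no count of probe sets is given below, agreement between them is not implied.

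In very-late against late glands, 3559 probe sets rose and 3703 fell, 7262 in all or 13.8% of those tested. Of the 14132 genes with a symbol, 1444 rose (10.2%) and 1587 fell (11.2%), 21.4% together, and the median change of all genes was 0.01. Each count for a gene list below is to be read beside these shares. The lists were chosen with earlier results of these data known, so a larger share may follow in part from that choice. The change was at least 2-fold for 466 of the genes that rose and 550 of those that fell. The 4 arrays of one stage lay wholly outside the other 4 for 82.5% of the genes that rose and 83.4% of those that fell, against 21.9% of all genes. Those genes were called on the same arrays, so a high share follows in part from the selection. Genes named below as largest changes or as leading list members were picked for not overlapping, so their separation is not added evidence. All 4 very-late arrays also lay above every one of the 16 earlier arrays for 52.6% of the genes that rose, and below every one for 50.3% of those that fell. No share over all genes is given for this, and the genes were chosen partly on these very-late values, so these shares are descriptive only. In late against mid-late glands, a comparison that uses the same late arrays, 6 probe sets were called, 0.0114% of those tested, although 3369 had an unadjusted p under 0.05. The 2 steps were not tested against each other.

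**Figure D1:**
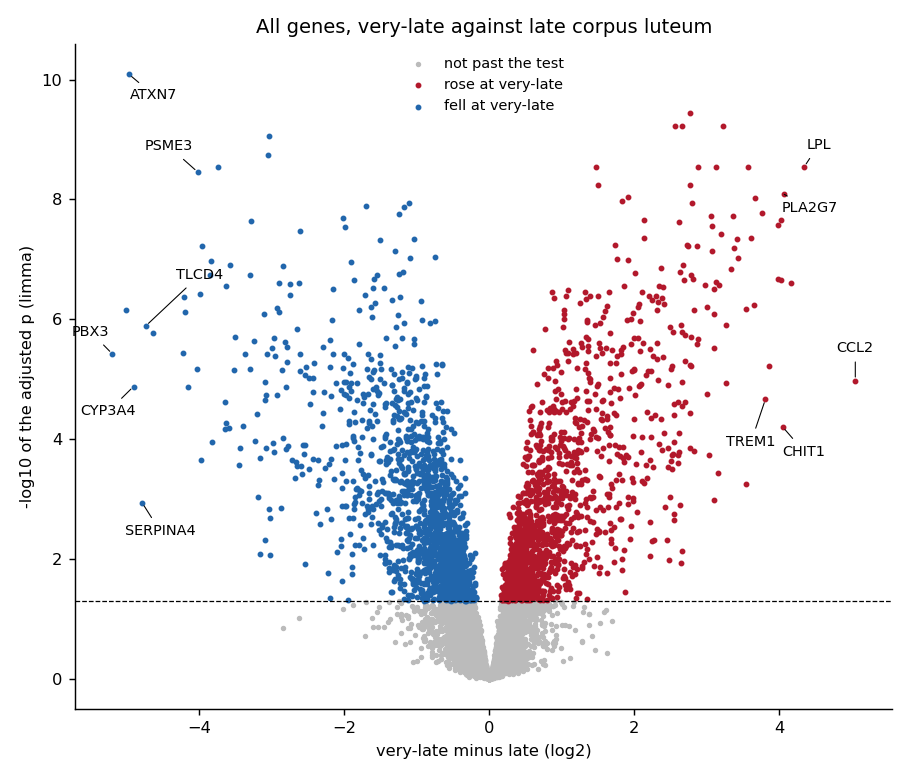
Each point is 1 of the 14132 genes, with the very-late minus late change (log2) on the horizontal axis and −log10 of its adjusted p in limma on the vertical axis. Red points are the 1444 genes that rose, blue points the 1587 that fell, grey points did not pass, and the dashed line marks the threshold. CCL2 lies furthest to the right at 5.05 ± 0.59 and PBX3 furthest to the left at -5.20 ± 0.56.

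The very-late glands differed more among themselves than the late glands did. Correlations across probe sets ran from r = 0.964 to 0.988 within the very-late stage and from 0.986 to 0.995 within the late stage, and between the stages from 0.921 to 0.970; probe sets are not independent replicates. Among genes that fell, the median SD was 0.290 in very-late and 0.173 in late glands, and among genes that rose it was 0.309 and 0.141. Very-late replicate 2 stood furthest out: it had the highest of the 4 very-late values in 851 of the 1444 genes that rose (58.9%) and the lowest in 855 of the 1587 that fell (53.9%). Among genes that did not pass it was the highest in 26.2% and the lowest in 31.2%. The same array had a mean of 7.22 over 6 probe sets of the mitochondrial genome, against 11.50 to 11.85 in the other 3 very-late arrays and 11.96 to 12.17 in the late arrays. A low mean was not particular to it: 6 of the 12 earlier arrays had one too, the 7 low means of the series ranging from 7.02 to 8.93, while no other array was below 11.50. Very-late replicate 1 had a GAPDH signal at the 3' end that exceeded the 5' end by 2.70, a measure of RNA quality that lay at 0.83 to 1.35 in the other very-late arrays and at 1.16 to 1.46 in the late ones. In an exact two-sided permutation test over the 6 such array measures examined, the smallest p was 0.0286, for the mitochondrial mean, which is the smallest that 4 against 4 arrays can give (adjusted p = 0.171). Without both of these arrays 4704 probe sets were called, and the standard errors below assume 1 spread for all 5 stages; the part of these array measures in single results was not tested beyond that.

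Of the 18 measured genes of steroid synthesis, 10 fell, 0 rose and 8 did not pass, and STAR, CYP19A1, HSD11B1 and HSD3B2 were all lower by more than 8-fold. The list had a median change of -0.90, beside 0.01 for all genes. STAR, which carries cholesterol into the mitochondrion, had values of 8.11, 8.05, 9.88 and 10.55 in the very-late arrays, against 13.30, 13.38, 13.44 and 13.33 in the late arrays. The stages did not overlap, the late values lay within a narrow band near the top of the scale, and the very-late glands fell into a lower and a higher pair. STAR fell by 4.22 ± 0.38 (adjusted p = 4.33e-07), to a level 18.6-fold lower; without very-late replicates 1 and 2, the lower pair, the change was -3.15. Its 12 values at the 3 earlier stages were 13.03 to 13.51, all above the highest very-late gland. In tissue RNA, a loss of luteal cells and a loss of the message from each cell cannot be told apart, here or for the genes that follow.

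HSD3B2, which turns pregnenolone into progesterone, had values of 5.67, 5.76, 6.53 and 6.23 at the very-late stage, against 7.67, 10.16, 9.98 and 9.57 at the late stage. The stages did not overlap, and late replicate 1 was the lowest late gland. HSD3B2 fell by 3.30 ± 0.37 (adjusted p = 6.79e-06), and the preceding step, late minus mid-late, was -2.05 ± 0.37 (adjusted p = 0.0816). That earlier difference did not pass; for STAR it was 0.02 ± 0.38. The closely similar HSD3B1 has no probe set of its own here, and the HSD3B2 probe set may read both.

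CYP19A1, the aromatase that makes estrogens, had 5.79, 5.90, 5.99 and 7.29 in the very-late arrays, against 10.03, 11.74, 11.85 and 11.44 in the late arrays, a fall of 5.02 ± 0.47 (adjusted p = 7.04e-07). Very-late replicate 4 kept the highest very-late value and was still below every late gland. HSD11B1, which regenerates active glucocorticoid, had 5.30, 6.38, 4.88 and 5.75 in the very-late arrays, against 8.47, 9.90, 9.97 and 9.38 in the late arrays. It fell by 3.85 ± 0.32 (adjusted p = 1.82e-07), and by the late stage it stood at -1.69 ± 0.32 relative to mid-late (adjusted p = 0.0816). NR5A2, a nuclear receptor that drives steroidogenic genes, had 6.46, 4.34, 7.23 and 7.23 in the very-late arrays, against 8.88, 8.99, 9.05 and 9.26 in the late arrays. It fell by 2.73 ± 0.43 (adjusted p = 0.000228), with very-late replicate 2 close to background; without that array the change was -2.07.

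The electron carriers that serve the mitochondrial P450 enzymes, singled out after their values were seen, fell too. FDXR, the reductase, fell by 2.87 ± 0.33 (adjusted p = 7.08e-06) and FDX1, the ferredoxin, fell by 1.10 ± 0.15 (adjusted p = 4.88e-05). FDX1 nevertheless averaged 11.11 ± 0.43 in very-late glands, against 12.20 ± 0.08 in late glands (SD, n = 4 each), still high on the scale of its own probe set. Smaller falls were measured for HSD17B7 (-0.91 ± 0.21), POR (-0.89 ± 0.21) and CYB5A (-0.67 ± 0.16). Several members did not pass: the differences were -0.22 ± 0.15 for NR5A1, the receptor SF-1 (adjusted p = 0.409), 0.14 ± 0.22 for TSPO, a protein of the outer mitochondrial membrane (adjusted p = 0.771), and -1.30 ± 0.66 for CYP17A1, which makes androgens (adjusted p = 0.245). CYP17A1 averaged 6.72 ± 1.99 in very-late and 8.02 ± 0.22 in late glands, so the very-late glands were spread widely. The cholesterol side-chain cleavage enzyme and the receptor of luteinizing hormone had no probe set with their symbol alone and have no value here.

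Of the 18 measured genes of cholesterol synthesis 12 fell and 0 rose, with a median change of -1.23; without very-late replicates 1 and 2 the count was 11. TM7SF2, a sterol reductase, had 6.45, 4.72, 6.98 and 6.44 in the very-late arrays, against 9.39, 10.19, 10.60 and 10.38 in the late arrays, a fall of 3.99 ± 0.35 (adjusted p = 3.76e-07). EBP, a sterol isomerase, had 6.79, 6.52, 6.84 and 6.46 at the very-late stage, against 8.88, 9.18, 9.96 and 9.02 at the late stage. The very-late values of EBP lay close together and below all late ones, and EBP fell by 2.61 ± 0.28 (adjusted p = 3.79e-06). CYP51A1, the lanosterol demethylase, fell by 2.54 ± 0.29 (adjusted p = 8.48e-06), with very-late values of 5.55, 5.70, 5.70 and 6.20 against 7.90, 8.28, 9.02 and 8.12 in late glands.

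DHCR7, which carries out the last step to cholesterol, had 4.06, 3.80, 4.42 and 4.58 in the very-late arrays, against 7.09, 7.44, 8.18 and 6.99 in the late arrays. The very-late mean was not clearly above background, so DHCR7 was at least 8.79-fold lower (adjusted p = 3.86e-05). SQLE, the epoxidase that commits squalene to sterols, was likewise at background in very-late glands and at least 3.22-fold lower (adjusted p = 9.45e-06). The regulators of the pathway fell as well, SREBF2, its transcription factor, by 0.89 ± 0.10 (adjusted p = 8.36e-06) and SCAP, the SREBP escort protein, by 1.63 ± 0.18 (adjusted p = 4.64e-06). The mevalonate pathway enzymes MVK (-0.09 ± 0.11), PMVK (0.07 ± 0.14) and FDPS (-0.09 ± 0.07) did not pass. SQLE, SREBF2, SCAP and these 3 genes were singled out after their values were seen.

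Some genes that free and export cholesterol rose. LIPA, the lysosomal acid lipase that frees cholesterol from its esters, had 12.69, 12.89, 12.51 and 12.63 in the very-late arrays, against 10.75, 10.87, 10.96 and 11.08 in the late arrays. The stages did not overlap, the glands of each agreed closely, and LIPA rose by 1.76 ± 0.14 (adjusted p = 9.92e-08). Of the 5 measured genes of lipoprotein uptake, 2 rose and 0 fell, the other being NPC2, which moves cholesterol out of the lysosome, at 0.79 ± 0.14 (adjusted p = 0.0008). Of 8 measured genes of cholesterol efflux 3 rose and 0 fell: NR1H3, the liver X receptor alpha, by 1.53 ± 0.24 (adjusted p = 0.000194), PLTP, a phospholipid transfer protein, by 1.00 ± 0.13 (adjusted p = 2.44e-05), and MYLIP, which marks lipoprotein receptors for breakdown, by 0.90 ± 0.15 (adjusted p = 0.000472). The change of APOE, the lipoprotein apolipoprotein, was 0.25 ± 0.13 (adjusted p = 0.254). ABCA1, the cholesterol exporter, was not clearly above background at either stage (4.05 ± 0.10 in very-late and 3.85 ± 0.21 in late glands).

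**Figure D2:**
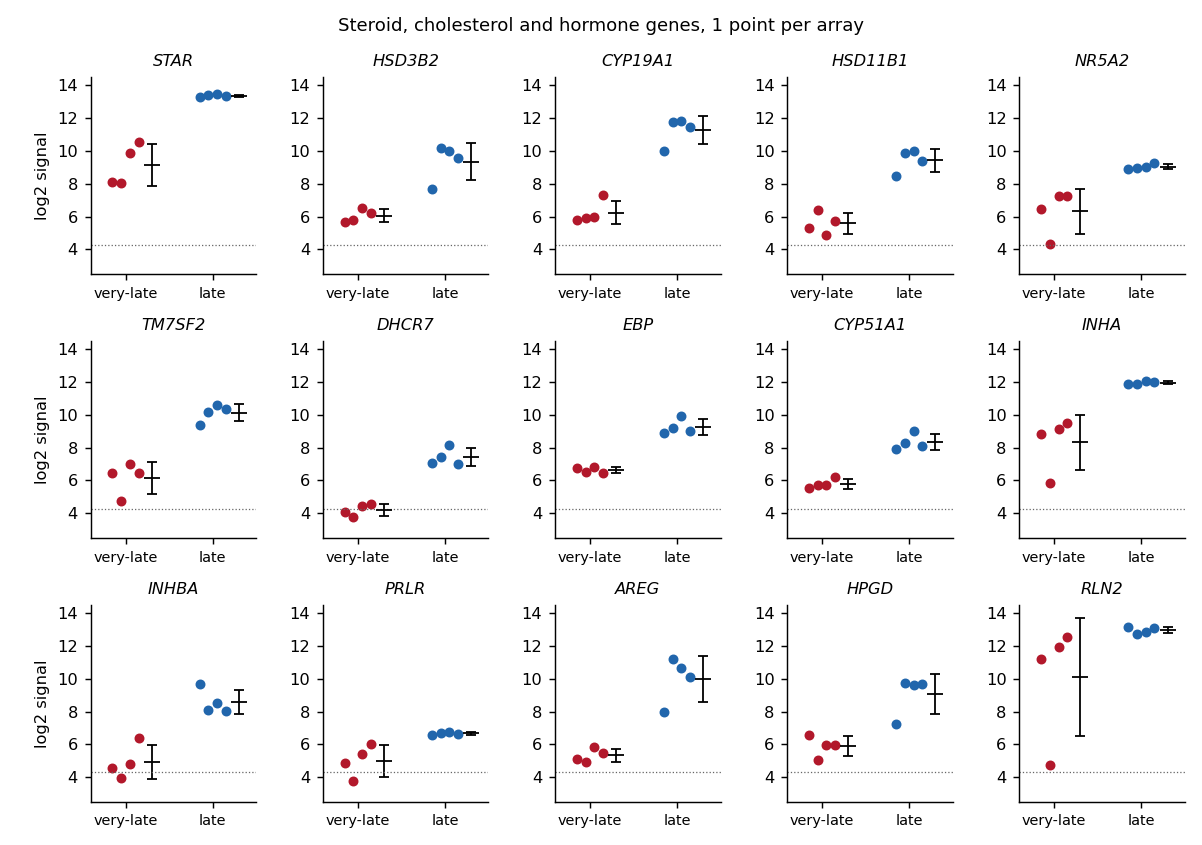
Each panel is 1 gene, each point 1 array (log2 signal on the vertical axis), with very-late glands in red on the left and late glands in blue on the right. Black bars are the mean ± SD of 4 arrays, and the dotted line is 4.29, the 95th percentile of the viral probe sets. Very-late points lie below all late points in all 15 panels, and in RLN2 very-late replicate 2, at 4.75, lies far below the other 3 very-late glands.

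Signals that reach or leave the luteal cell changed in part. Inhibin genes were among the larger falls: INHA, the alpha subunit shared by the inhibins, had 8.83, 5.82, 9.16 and 9.50 in the very-late arrays, against 11.89, 11.89, 12.08 and 11.98 in the late arrays. INHA fell by 3.63 ± 0.50 (adjusted p = 5.43e-05), or -2.80 without very-late replicate 2, the lowest gland. INHBA, the subunit of activin A, had 4.57, 3.95, 4.83 and 6.41 in the very-late arrays, against 9.65, 8.08, 8.53 and 8.06 in the late arrays and fell by 3.64 ± 0.51 (adjusted p = 6.72e-05). In all 4 of the 12 measured genes of this list fell and 0 rose. The fall of FST, which binds activin (-1.18 ± 0.36, adjusted p = 0.0341), did not hold in 6 of the 8 fits that left out 1 array (adjusted p up to 0.0973, without late replicate 1).

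Of the 13 measured genes of gonadotropin signalling, 4 fell and 2 rose. The regulatory subunits of protein kinase A fell, PRKAR2B by 1.74 ± 0.29 (adjusted p = 0.000387) and PRKAR1A by 1.32 ± 0.20 (adjusted p = 0.000145). PRKAR2B had 6.07, 5.22, 5.89 and 6.60 in the very-late arrays, against 7.73, 7.59, 7.70 and 7.72 in the late arrays, with the late glands within a narrow band. CITED2, a transcriptional co-regulator, fell by 1.38 ± 0.25 (adjusted p = 0.000833). The catalytic subunit PRKACB, which was singled out afterwards, rose by 0.59 ± 0.16 on 1 of 3 probe sets (adjusted p = 0.0185), and without very-late replicates 1 and 2 the list held 4 falls and 0 rises.

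Of 14 nuclear and pituitary hormone receptors 3 fell and 2 rose. PRLR, the prolactin receptor, fell by 1.67 ± 0.33 (adjusted p = 0.00165), with 4.84, 3.74, 5.42 and 6.0 at the very-late stage, against 6.59, 6.67, 6.78 and 6.66 at the late stage. PGRMC1, a membrane protein linked to progesterone action, fell by 1.25 ± 0.23 (adjusted p = 0.000884). PPARG, a nuclear receptor for lipids, rose by 1.22 ± 0.21 (adjusted p = 0.000547). AREG, a ligand of the EGF receptor, had 5.11, 4.95, 5.84 and 5.48 in the very-late arrays, against 7.97, 11.20, 10.66 and 10.09 in the late arrays. It fell by 4.64 ± 0.46 (adjusted p = 1.68e-06), and the change was -5.31 without late replicate 1, which was the lowest late gland.

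Of the 5 measured prostaglandin genes 3 rose and 1 fell. CBR1, a carbonyl reductase that acts on prostaglandins, rose by 0.84 ± 0.19 (adjusted p = 0.00568). From late levels at background, PTGES3, a prostaglandin E synthase, was at least 1.64-fold higher (adjusted p = 0.000202) and ABCC4, which exports prostaglandins, at least 1.34-fold higher (adjusted p = 0.0219). These 3 genes were named after their values were seen. HPGD, which inactivates prostaglandins and was the member that fell, had 6.59, 5.07, 5.96 and 5.98 at the very-late stage, against 7.26, 9.77, 9.64 and 9.69 at the late stage. The stages did not overlap although late replicate 1 came close, and HPGD fell by 3.19 ± 0.59 (adjusted p = 0.000916), a change of -3.80 without that array; all 5 of its probe sets fell. RLN2, the relaxin of the primate gland, whose probe set may also read related relaxins, had 11.19, 4.75, 11.94 and 12.55 in the very-late arrays, against 13.14, 12.75, 12.86 and 13.08 in the late arrays. Every very-late value was below every late one, but 3 of the 4 very-late glands stayed high on the scale and replicate 2 was near background. The change of RLN2, -2.85 ± 1.20, did not pass (adjusted p = 0.143). Its size turned on very-late replicate 2: without that array it was -1.06 (adjusted p = 0.388), and without very-late replicates 3 or 4 it was -3.46 or -3.67.

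Of 18 measured monocyte and macrophage markers 10 rose and 0 fell, with a median change of 1.11, and 8 rose without very-late replicates 1 and 2. CD68, a protein of macrophage lysosomes, had 10.77, 11.49, 10.49 and 10.84 in the very-late arrays, against 7.81, 8.20, 8.24 and 8.55 in the late arrays. It rose by 2.70 ± 0.27 (adjusted p = 1.84e-06), through 1 of its 2 probe sets, and its values at the 3 earlier stages were 6.24 to 7.66. TYROBP, the signalling adaptor of myeloid receptors, had 12.36, 12.15, 11.46 and 11.81 at the very-late stage, against 9.03, 9.11, 9.07 and 9.53 at the late stage, a rise of 2.76 ± 0.31 (adjusted p = 5.85e-06). CYBB, a subunit of the phagocyte oxidase, had 10.29, 11.38, 10.13 and 10.57 in the very-late arrays, against 6.44, 7.19, 7.24 and 7.34 in the late arrays and rose by 3.54 ± 0.33 (adjusted p = 6.75e-07).

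CD14, the endotoxin co-receptor of monocytes, rose by 1.67 ± 0.35 (adjusted p = 0.00253), with 9.99, 10.84, 10.19 and 10.34 at the very-late stage, against 7.86, 8.85, 9.05 and 8.92 at the late stage. AIF1, an actin-binding protein of macrophages, rose by 1.86 ± 0.44 (adjusted p = 0.00704) but not without very-late replicates 1 and 2 (1.27, adjusted p = 0.125). Other markers of the same cells did not pass. The difference was 0.66 ± 0.28 for CSF1R, the receptor for the macrophage growth factor (adjusted p = 0.152), 0.04 ± 0.10 for MRC1, the mannose receptor (adjusted p = 0.879), -0.01 ± 0.44 for C1QB, a complement chain that macrophages make (adjusted p = 0.997) and -1.22 ± 0.46 for its partner C1QA (adjusted p = 0.0942). C1QA averaged 8.55 ± 0.95 in very-late and 9.77 ± 0.18 in late glands; 1 of its 2 probe sets fell, and 2 of the 3 probe sets of MRC1 rose, though not the brightest, which is the one given. These 4 genes were singled out after their values were seen.

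Over the defining markers of each cell type, summed on the linear scale, 7 measured macrophage markers ranged from 6170 to 10834 in very-late glands and from 1417 to 2250 in late glands, and 5 of them rose. The 2 measured luteal markers, STAR and HSD3B2, summed to 319 to 1575 in very-late and 10288 to 12150 in late glands, most of it from STAR. Linear sums are weighted to the brightest probe sets, so each sum here mainly follows those and is not a measure of cell number. Sums over 5 endothelial markers overlapped, at 2056 to 4367 against 3090 to 3540, and 0 of the 5 passed. Neutrophil markers summed to 50 to 119 against 45 to 69, with S100A9 not clearly above background at either stage, and both measured B cell markers, MS4A1 and CD79A, were at background throughout. Erythrocyte markers summed to 96 to 162 against 116 to 141, epithelial ones to 90 to 189 against 172 to 197, and the fibroblast markers DCN and LUM to 1552 to 4237 against 5011 to 6287, with no member of these lists past the test. Of these, EPCAM and LUM were not clearly above background at either stage, so that the fibroblast sum was that of DCN (-0.91 ± 0.45, adjusted p = 0.236). The part of changed cell numbers in the other results was not tested. The pericyte and smooth muscle markers TAGLN and MYH11 summed to 982 to 1489 against 1184 to 2034, and 1 of these 2 fell. The T cell markers chosen as defining, CD3D, CD3E, CD2 and LCK, have no value here. In a separate list of 8 measured T and NK cell markers, 3 rose and 1 fell. CD8B, a chain of the cytotoxic T cell co-receptor, was at least 1.51-fold higher (adjusted p = 1.34e-06) from a late level at background. CD8A, its partner chain, rose by 0.60 ± 0.15 (adjusted p = 0.0131) and NKG7, a granule protein of cytotoxic cells, by 0.38 ± 0.11 (adjusted p = 0.0299), both named after their values were seen. GZMB, a protease of cytotoxic granules, fell by 2.26 ± 0.37 (adjusted p = 0.000304), with 9.84, 10.57, 8.96 and 9.40 at the very-late stage, against 12.04, 11.78, 11.93 and 12.07 at the late stage.

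Of 22 measured genes for the clearance of dying cells 10 rose and 1 fell. CHIT1, a chitinase secreted by activated macrophages, had 12.58, 13.02, 12.98 and 13.03 in the very-late arrays, against 9.61, 8.38, 8.21 and 9.23 in the late arrays. The very-late values lay close together near the top of the scale, and CHIT1 rose by 4.04 ± 0.56 (adjusted p = 6.26e-05). RAC2, a GTPase of blood cells that moves the phagocyte cytoskeleton, had 9.68, 9.87, 9.23 and 9.84 at the very-late stage, against 5.91, 5.85, 5.60 and 6.20 at the late stage and rose by 3.76 ± 0.25 (adjusted p = 1.7e-08). CD36, a scavenger receptor for oxidised lipid, had 10.31, 10.33, 9.32 and 9.78 in the very-late arrays, against 6.20, 6.68, 6.43 and 6.70 in the late arrays and rose by 3.43 ± 0.27 (adjusted p = 9.57e-08).

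TREM2, a lipid-sensing receptor of macrophages that signals through TYROBP, had 7.05, 8.53, 7.84 and 8.10 at the very-late stage, against 4.87, 4.77, 4.76 and 4.87 at the late stage. The late values of TREM2 agreed closely, just above background, and it rose by 3.07 ± 0.21 (adjusted p = 2.74e-08). GPNMB, a glycoprotein of lipid-laden macrophages, rose by 2.33 ± 0.35 (adjusted p = 0.00012) on its brighter probe set, while its other probe set fell. LGALS3, a lectin of phagocytes named after its values were seen, averaged 13.38 ± 0.21 in very-late and 10.60 ± 0.37 in late glands (SD, n = 4 each), a rise of 2.78 ± 0.28 (adjusted p = 1.95e-06).

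SPP1, or osteopontin, had 9.09, 9.74, 10.85 and 8.26 in the very-late arrays, against 5.45, 6.70, 6.88 and 9.02 in the late arrays. These ranges overlapped because late replicate 4 exceeded very-late replicate 4. SPP1 rose by 2.47 ± 0.62 (adjusted p = 0.0106), by 3.14 without late replicate 4, and did not pass on the 8 arrays alone (adjusted p = 0.0956). Outside that list, LPL, which releases fatty acids from lipoproteins, had 9.74, 10.32, 9.81 and 10.16 at the very-late stage, against 6.16, 5.48, 5.45 and 5.57 at the late stage and rose by 4.34 ± 0.24, or 20.3-fold (adjusted p = 2.86e-09), on 2 of its 4 probe sets. PLA2G7, which inactivates platelet-activating factor and is made by macrophages, had 8.70, 9.23, 7.46 and 8.24 in the very-late arrays, against 3.98, 4.39, 4.38 and 4.61 in the late arrays and rose by 4.07 ± 0.25 (adjusted p = 8.22e-09). STAB1, a scavenger receptor of resident macrophages and sinusoidal vessels, was the member of the list that fell, by 0.97 ± 0.21 (adjusted p = 0.00366).

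Lysosomal genes rose in both lists that cover them. Of 25 measured cathepsins and other hydrolases 14 rose and 2 fell (11 and 1 without very-late replicates 1 and 2), with a median change of 0.58, and of 13 genes of the lysosomal membrane and proton pump 8 rose and 0 fell. CTSS, a cathepsin of antigen-presenting cells, had 11.26, 12.24, 11.23 and 11.31 in the very-late arrays, against 8.57, 9.20, 9.03 and 9.37 in the late arrays. Very-late replicate 2 was the highest, the stages did not overlap, and all 4 probe sets of CTSS rose, the one shown here by 2.47 ± 0.37 (adjusted p = 0.000143). The step before, late minus mid-late, stood at 1.84 ± 0.37 (adjusted p = 0.105).

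CTSK, a collagen-degrading cathepsin, had 12.43, 12.02, 12.45 and 12.34 at the very-late stage, against 9.09, 9.29, 9.48 and 10.94 at the late stage. CTSK rose by 2.61 ± 0.40 (adjusted p = 0.000168), with late replicate 4 partway between the stages. LGMN, or legumain, an asparaginyl protease, had 12.97, 12.71, 11.98 and 12.27 in the very-late arrays, against 9.65, 9.69, 9.55 and 9.77 in the late arrays, a rise of 2.81 ± 0.23 (adjusted p = 2.1e-07). GM2A, the activator of ganglioside breakdown, rose by 2.54 ± 0.52 (adjusted p = 0.00224) on 1 of 2 probe sets, and IFI30, the lysosomal thiol reductase of antigen processing, by 2.66 ± 0.31 (adjusted p = 1.12e-05). Cathepsin D, from the gene CTSD, did not pass (0.42 ± 0.33, adjusted p = 0.503). FUCA1, a fucosidase, fell by 1.03 ± 0.12 (adjusted p = 9.9e-06); it and CTSD were singled out after their values were seen.

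TCIRG1, a subunit of the proton pump, had 9.92, 9.80, 9.09 and 9.12 at the very-late stage, against 7.21, 7.33, 7.63 and 7.86 at the late stage and rose by 1.98 ± 0.18 (adjusted p = 7.89e-07). ATP6V1F, another pump subunit, rose by 1.28 ± 0.13 (adjusted p = 2.86e-06) and CD63, a membrane protein of late endosomes, by 1.06 ± 0.11 (adjusted p = 3.67e-06). Other pump subunits, chosen after their values were seen, such as ATP6V1E1 (-0.28 ± 0.13, adjusted p = 0.194) and ATP6V0E1 (-0.09 ± 0.08, adjusted p = 0.594), did not pass.

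**Figure D3:**
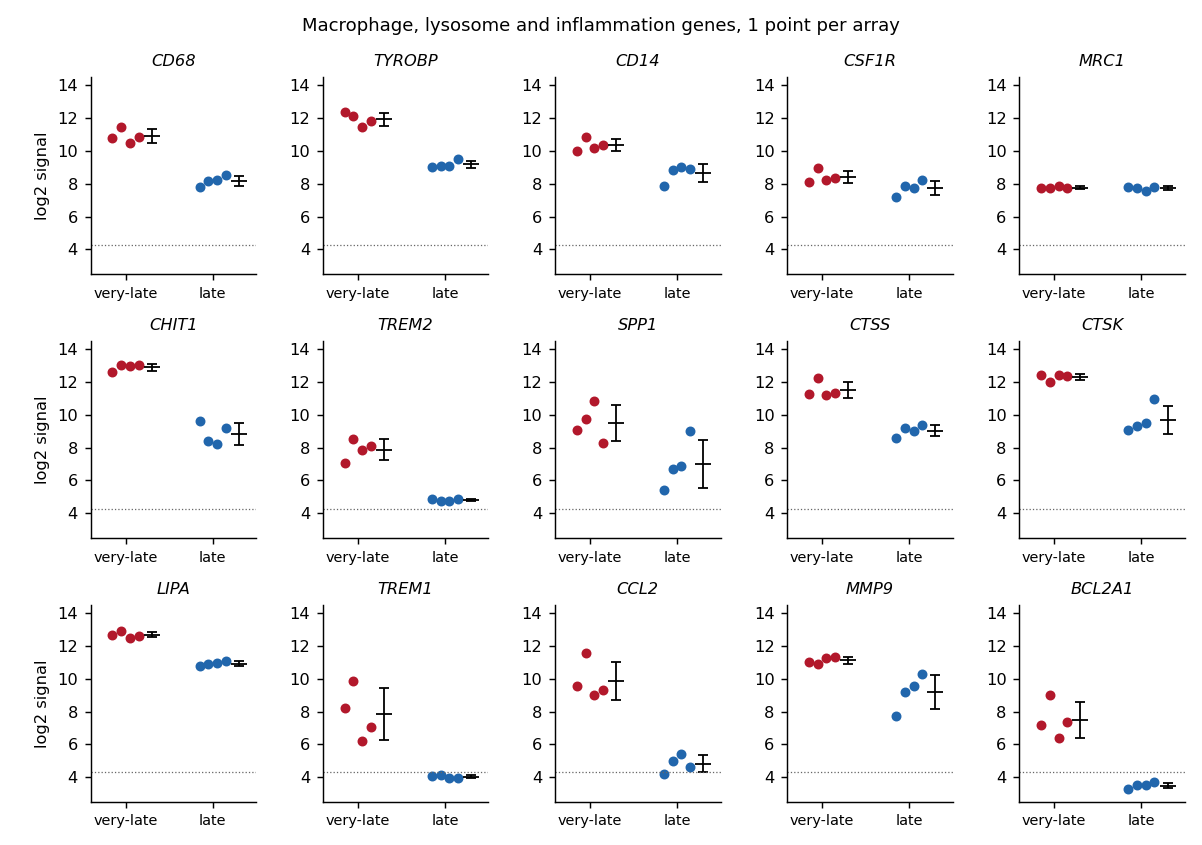
Each panel is 1 gene of macrophages, lysosomes or inflammation, each point 1 array (log2 signal on the vertical axis), with very-late glands in red on the left and late glands in blue on the right; black bars are the mean ± SD of 4 arrays and the dotted line is 4.29. CHIT1, CTSS and LIPA are fully separated, MRC1 is level at 7.77 ± 0.07 and 7.73 ± 0.11, and SPP1 overlaps.

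Chemokine genes rose in 7 and fell in 2 of 29 measured members. CCL2, which attracts monocytes, had 9.55, 11.60, 8.98 and 9.33 in the very-late arrays, against 4.20, 5.0, 5.42 and 4.65 in the late arrays. It rose by 5.05 ± 0.59, or 33.1-fold (adjusted p = 1.06e-05), and very-late replicate 2 was the highest gland. CCL3, another chemokine for monocytes, had 10.11, 10.90, 10.63 and 9.87 at the very-late stage, against 6.19, 6.26, 5.98 and 6.44 at the late stage, with all 4 probe sets past the test and a rise of 4.16 ± 0.35 on the one shown (adjusted p = 2.44e-07). CCL4L1, whose probe set may also read the closely similar CCL4, rose by 2.32 ± 0.25 (adjusted p = 4.64e-06).

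CCR1, a receptor for CCL3, had 6.36, 9.18, 6.54 and 6.45 in the very-late arrays, against 4.17, 4.43, 4.63 and 4.92 in the late arrays. One gland, very-late replicate 2, was far above the other 3, and the rise of 2.60 ± 0.41 (adjusted p = 0.000247) became 1.91 without it. CXCL8, the chemokine for neutrophils, was not clearly above background at either stage, at 3.88 ± 0.21 in very-late and 3.65 ± 0.15 in late glands. ACKR1, a chemokine-binding protein of venules that was named after its values were seen, fell by 1.88 ± 0.38 (adjusted p = 0.00207).

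Among interleukins and their receptors 9 of 26 rose and 1 fell, and 5 rose without very-late replicates 1 and 2. IL10RA, the receptor for interleukin 10, had 8.0, 8.0, 6.90 and 6.93 at the very-late stage, against 5.25, 5.32, 5.50 and 5.40 at the late stage and rose by 2.09 ± 0.25 (adjusted p = 1.22e-05). IL1RN, the interleukin 1 receptor antagonist, rose by 2.45 ± 0.55 (adjusted p = 0.00478) and CSF2RB, the shared chain of the GM-CSF receptor, by 1.81 ± 0.37 (adjusted p = 0.0022). Neither passed without very-late replicates 1 and 2 (adjusted p = 0.104 and 0.0629). IL6ST, the signal chain shared by the interleukin 6 family, was the member that fell, by 2.94 ± 0.27 (adjusted p = 6.58e-07), with 5.16, 4.63, 5.58 and 5.54 in the very-late arrays, against 8.11, 8.55, 8.08 and 7.91 in the late arrays. TNF and IL6 were not clearly above background in either stage, with very-late means of 3.47 ± 0.12 and 3.45 ± 0.11 and late means of 3.53 ± 0.10 and 3.43 ± 0.10.

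TREM1, a receptor that amplifies inflammation, had 8.21, 9.87, 6.24 and 7.07 in the very-late arrays, against 4.09, 4.16, 3.94 and 3.96 in the late arrays. The late values were at background, and TREM1 was at least 11.8-fold higher (adjusted p = 2.17e-05), or at least 7.37-fold without very-late replicate 2, the highest gland. ADORA2B, an adenosine receptor, was at least 10.5-fold higher from a background level (adjusted p = 5.83e-07), and C5AR1, the receptor for the complement fragment C5a, rose by 2.66 ± 0.34 (adjusted p = 2.8e-05). Of 14 complement genes 4 rose and 0 fell, so 28.6% were called, beside 21.4% of all genes (10.2% rose). Among them CFD, the protease of the alternative pathway, rose by 1.98 ± 0.34 (adjusted p = 0.000521).

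Of 5 measured genes of class II presentation 4 rose and 0 fell, or 2 without very-late replicates 1 and 2. Among them MAMU-DRA, a chain of the class II molecule, had 11.68, 13.24, 12.31 and 12.30 at the very-late stage, against 10.72, 11.31, 11.29 and 11.39 at the late stage and rose by 1.20 ± 0.37 (adjusted p = 0.0375). That call was lost in 7 of the 8 fits that left out 1 array, with an adjusted p up to 0.13, without very-late replicate 2. CD74, the class II invariant chain, did not pass (0.77 ± 0.31, adjusted p = 0.12), and 1 of 9 class I genes was called (11.1%), a rise. Interferon-response genes rose in 3 and fell in 1 of 16, so 25.0% were called, near the 21.4% of all genes. Among the rises IFIT2 was counted on 1 of its 6 probe sets, while 2 others fell. MX2, an antiviral GTPase, rose by 1.69 ± 0.30 (adjusted p = 0.000666), whereas MX1 (1.12 ± 0.80) and ISG15 (0.77 ± 0.72) did not pass (adjusted p = 0.452 and 0.591). IRF8, a transcription factor of the myeloid lineage, rose by 2.23 ± 0.32 (adjusted p = 9.14e-05) on 2 of its probe sets while the third fell.

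Genes of the BCL2 family, which promote or block cell death, rose in 3 of 11 measured members and fell in 0. So 27.3% were called, beside 21.4% of all genes (10.2% rose). BCL2L11, which encodes the death activator BIM, had 7.80, 6.46, 7.72 and 7.43 at the very-late stage, against 6.34, 6.14, 5.99 and 6.34 at the late stage. It rose by 1.15 ± 0.24 (adjusted p = 0.00301), very-late replicate 2 lying just above the late range, and 2 of its 6 probe sets passed. BCL2A1, a survival protein of blood cells, had 7.20, 9.0, 6.37 and 7.34 in the very-late arrays, against 3.26, 3.50, 3.53 and 3.69 in the late arrays, so it was at least 9.1-fold higher than a late level at background (adjusted p = 2.1e-07). PMAIP1, or NOXA, was at least 1.4-fold higher (adjusted p = 0.0164) but did not pass without very-late replicate 2 (adjusted p = 0.0526) or on the 8 arrays alone (adjusted p = 0.0649).

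The classical pair did not pass. The difference was 0.03 ± 0.21 for BAX, a pore former of the mitochondrial pathway (adjusted p = 0.964), and 0.24 ± 0.11 for BCL2, its inhibitor (adjusted p = 0.203). Of 20 caspases and death receptors 5 rose and 2 fell. TNFRSF21, a death receptor, had 8.97, 8.93, 8.86 and 9.12 at the very-late stage, against 7.39, 8.03, 7.97 and 7.99 at the late stage and rose by 1.13 ± 0.23 (adjusted p = 0.0022). FAS, whose very-late mean was not clearly above background, did not pass (adjusted p = 0.414), nor did the ligand gene TNFSF10 (0.52 ± 0.37, adjusted p = 0.447).

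Matrix genes moved both ways. Of 17 matrix metalloproteinases 4 rose and 3 fell, or 3 and 1 without very-late replicates 1 and 2. MMP9, the gelatinase of leukocytes, had 11.02, 10.88, 11.29 and 11.33 in the very-late arrays, against 7.75, 9.20, 9.54 and 10.29 in the late arrays. The very-late glands agreed closely while the late glands spanned more than 2 units, and MMP9 rose by 1.94 ± 0.43 (adjusted p = 0.00466). Its preceding step was 2.59 ± 0.43 (adjusted p = 0.0693). MMP14, a membrane-bound activator of other MMPs, had 7.89, 8.31, 7.63 and 7.12 at the very-late stage, against 6.64, 6.63, 6.48 and 6.25 at the late stage. All 3 of its probe sets rose, the one shown by 1.24 ± 0.18 (adjusted p = 9.71e-05). MMP19 rose by 1.68 ± 0.29 (adjusted p = 0.000554) on 1 of 2 probe sets.

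MMP2, the other gelatinase, did not pass, at 0.23 ± 0.23 (adjusted p = 0.62). MMP12, the macrophage elastase, had 3.07, 3.61, 4.47 and 3.26 in the very-late arrays, against 3.07, 3.95, 4.55 and 6.11 in the late arrays, mostly near background in both stages; it did not pass (adjusted p = 0.247) except without late replicate 1, when it was at least 1.49-fold lower (adjusted p = 0.0254). Of 16 inhibitors and other matrix proteases 6 fell and 1 rose. TIMP1, an inhibitor of MMPs, had 12.69, 12.60, 12.97 and 12.68 at the very-late stage, against 13.74, 13.85, 13.84 and 13.94 at the late stage, a fall of 1.11 ± 0.07 (adjusted p = 1.14e-08) in glands that agreed closely, on 1 of 3 probe sets.

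RECK, a membrane-anchored MMP inhibitor, fell to background in very-late glands and was at least 3.51-fold lower (adjusted p = 0.000121). The aggrecan- and versican-cutting proteases ADAMTS4 and ADAMTS1 fell by 2.37 ± 0.37 (adjusted p = 0.000223) and 2.04 ± 0.36 (adjusted p = 0.000647), ADAMTS4 on 1 of 2 probe sets. ADAMTS2, which trims procollagen, fell by 1.60 ± 0.31 (adjusted p = 0.00145) on 2 of 3. PLAU, the urokinase and the member that rose, changed by 1.27 ± 0.22 (adjusted p = 0.000567) and was named after its values were seen.

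Of 19 collagen genes 5 fell and 2 rose, and of 23 other matrix genes 9 fell and 1 rose; without very-late replicates 1 and 2 the falls numbered 2 and 3. COL1A1, a chain of type I collagen, had 9.47, 9.64, 10.51 and 9.54 in the very-late arrays, against 11.52, 11.05, 11.21 and 11.40 in the late arrays and fell by 1.51 ± 0.24 (adjusted p = 0.000234), on 1 of its 2 probe sets. COL3A1, of type III collagen, did not pass (-0.59 ± 0.26, adjusted p = 0.163). COL15A1, of vessel basement membranes, fell by 1.11 ± 0.28 (adjusted p = 0.00983), and FBLN5, of elastic fibres, by 1.02 ± 0.21 (adjusted p = 0.00282). Neither of these passed without very-late replicates 1 and 2 (adjusted p = 0.108 and 0.0685), nor did COL15A1 on the 8 arrays alone (adjusted p = 0.0963). TGFBI, a matrix protein that macrophages also secrete, rose by 1.95 ± 0.41 (adjusted p = 0.00288), with 10.14, 10.30, 9.37 and 9.13 at the very-late stage, against 7.60, 7.94, 7.82 and 7.80 at the late stage, and it too missed the threshold without those arrays (adjusted p = 0.0749).

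Some vessel genes fell. Of 14 endothelial markers 5 fell and 0 rose, at a median of -0.37, and without very-late replicates 1 and 2 there were 2 falls and 1 rise. PECAM1, the adhesion molecule CD31, had 9.82, 9.70, 10.25 and 9.74 in the very-late arrays, against 9.92, 9.63, 9.54 and 9.81 in the late arrays; the stages overlapped and its change of 0.16 ± 0.15 did not pass (adjusted p = 0.593). VWF, the von Willebrand factor, did not pass (-0.41 ± 0.25, adjusted p = 0.363) except without very-late replicate 3 (-0.69, adjusted p = 0.0459). KDR, the main receptor for VEGF-A, fell by 0.94 ± 0.25 (adjusted p = 0.0165), a call lost without very-late replicate 1 (adjusted p = 0.0596) or late replicate 3 (adjusted p = 0.0602). EMCN, a sialoprotein of capillaries and veins, fell by 1.10 ± 0.23 (adjusted p = 0.00322), with 7.70, 6.77, 8.10 and 8.37 at the very-late stage, against 9.08, 8.72, 8.91 and 8.60 at the late stage. EMCN did not pass on the 8 arrays alone (adjusted p = 0.0685), and its change was -0.60 without very-late replicates 1 and 2.

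Among pericyte and smooth muscle markers 4 of 8 fell and 0 rose. MCAM, an adhesion molecule of pericytes and endothelium, had 7.24, 7.75, 9.10 and 8.69 in the very-late arrays, against 10.01, 10.26, 10.24 and 10.03 in the late arrays and fell by 1.94 ± 0.27 (adjusted p = 5.68e-05). ACTG2, a smooth muscle actin, fell by 2.15 ± 0.37 (adjusted p = 0.000469), while MYH11, the smooth muscle myosin, did not pass (0.23 ± 0.40, adjusted p = 0.802). Of 14 measured angiogenic factors and receptors 2 rose, 1 fell and 11 did not pass, so 21.4% were called, the same share as of all genes. ANGPTL4, an inhibitor of lipoprotein lipase that also acts on vessels, had 6.31, 4.92, 6.52 and 8.39 at the very-late stage, against 9.82, 10.15, 10.01 and 9.95 at the late stage. It fell by 3.45 ± 0.52 (adjusted p = 0.000143), and the change was -4.06 without very-late replicate 4, the least changed gland, -2.91 without very-late replicate 2 and -2.53 without very-late replicates 1 and 2. VEGFB rose by 1.18 ± 0.16 (adjusted p = 4.48e-05) and NRP2, a co-receptor of VEGF and semaphorins, by 1.33 ± 0.13 (adjusted p = 1.97e-06).

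**Figure D4:**
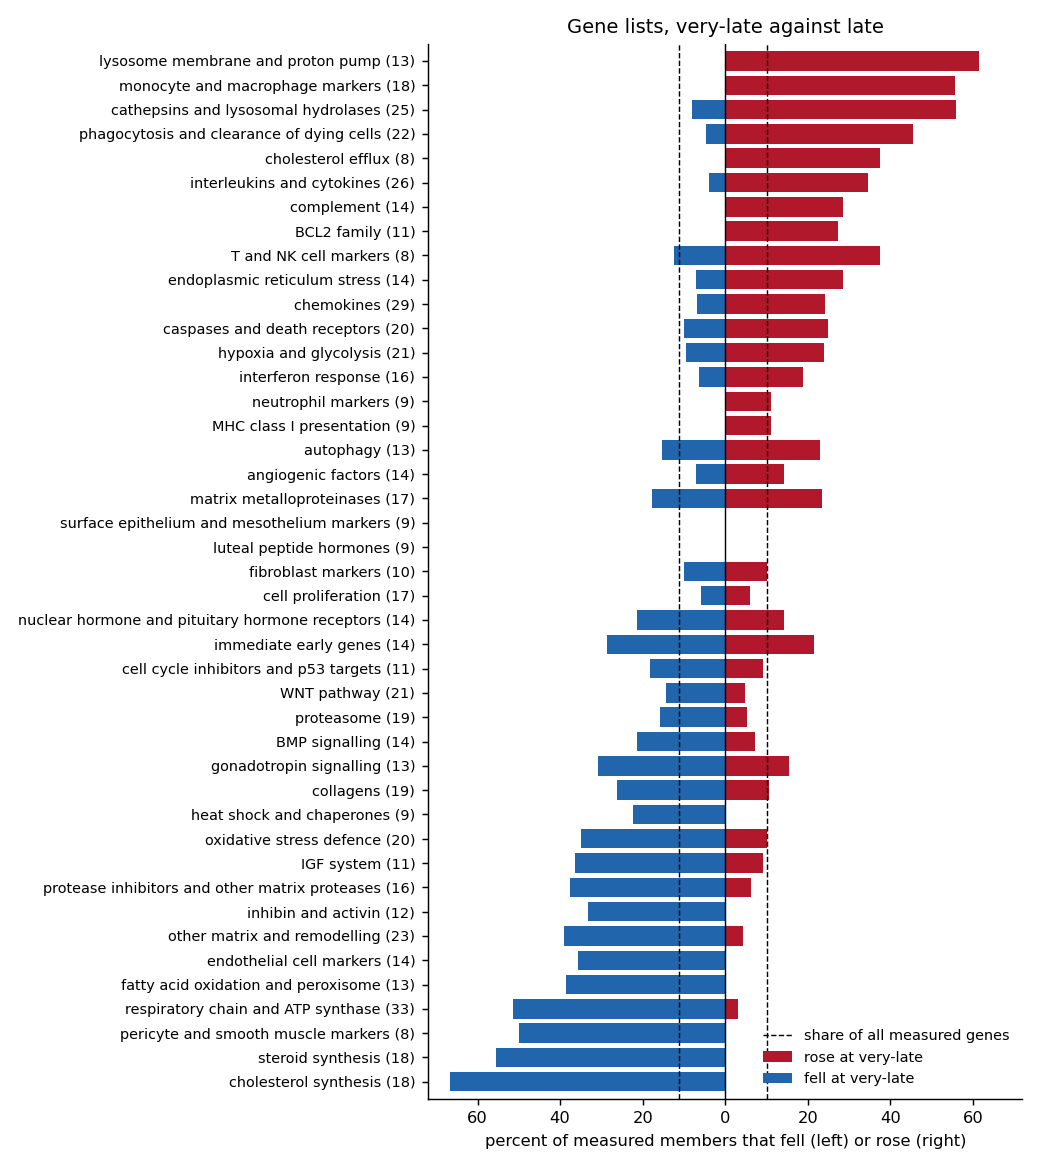
Each row is 1 gene list with at least 8 measured members, whose number stands in brackets. Bars to the right give the percent of members that rose and bars to the left the percent that fell, and dashed lines mark the shares over all 14132 genes, 10.2% and 11.2%. Lysosome and macrophage lists lie at the top, cholesterol and steroid synthesis at the bottom. The surface epithelium and luteal peptide lists, with 9 members each, have no member past the test. In each of them 5 of the 9 were not clearly above background at either stage.

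Mitochondrial genes of the nucleus fell in number, mostly by less than 2-fold. Of 33 genes of the respiratory chain and ATP synthase 17 fell and 1 rose, at a median of -0.39, and without very-late replicate 2, the array with the low mitochondrial-genome signal, 20 fell and 1 rose. UQCRC2, a core protein of complex III, had 8.31, 9.42, 9.26 and 9.28 in the very-late arrays, against 10.13, 10.25, 10.35 and 10.47 in the late arrays and fell by 1.24 ± 0.21 (adjusted p = 0.000532), lowest in very-late replicate 1. UQCRB, of the same complex, fell by 1.64 ± 0.15 (adjusted p = 6.18e-07), with 4.55, 4.35, 4.56 and 5.28 at the very-late stage, against 6.15, 6.30, 6.34 and 6.50 at the late stage, on 2 of its 4 probe sets. SDHC, of complex II, fell by 1.13 ± 0.21 (adjusted p = 0.000862) on 1 of 2 probe sets. COX8A, a subunit of cytochrome oxidase, was the member that rose, by 1.10 ± 0.16 (adjusted p = 9.5e-05), with 9.77, 10.15, 9.16 and 9.24 in the very-late arrays, against 8.40, 8.49, 8.43 and 8.61 in the late arrays.

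Fatty acid oxidation genes fell in 5 of 13, with 0 rises. ACADM, the medium-chain acyl-CoA dehydrogenase, had 7.77, 7.76, 7.11 and 7.50 at the very-late stage, against 9.35, 9.54, 9.74 and 9.48 at the late stage, a fall of 1.99 ± 0.14 on both probe sets (adjusted p = 2.91e-08 for the one shown), and ETFDH, which passes its electrons on, fell by 1.73 ± 0.22 (adjusted p = 2.01e-05). In oxidative defence 7 of 20 fell and 2 rose. SOD2, the mitochondrial superoxide dismutase that inflammatory signals also induce, had 11.41, 11.85, 10.76 and 11.21 in the very-late arrays, against 7.95, 8.44, 8.69 and 9.03 in the late arrays and rose by 2.78 ± 0.23 on 1 of 2 probe sets (adjusted p = 1.81e-07). The endoplasmic peroxidase GPX8 fell by 1.94 ± 0.26 (adjusted p = 5.07e-05), the glutathione transferase GSTA4 by 1.71 ± 0.29 (adjusted p = 0.000443), and the peroxiredoxin PRDX2 by 1.48 ± 0.31 (adjusted p = 0.00269), the last not passing on the 8 arrays alone (adjusted p = 0.078) and changed by -0.62 without very-late replicates 1 and 2.

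Immediate early genes split, with 3 of 14 higher and 4 lower. EGR2, a zinc-finger factor of myeloid and other cells, had 8.06, 8.44, 7.41 and 7.22 in the very-late arrays, against 6.71, 4.14, 3.93 and 3.77 in the late arrays. Late replicate 1 stood apart from the other late glands, which were at or below background. EGR2 rose by 3.15 ± 0.52 (adjusted p = 0.000373) on 1 of 2 probe sets. Without late replicate 1 it was at least 11.3-fold higher than a late level at background. ATF3, a stress factor, rose by 1.65 ± 0.26 (adjusted p = 0.000236) on 1 of 3 probe sets. ZFP36, which marks cytokine messages for decay, fell by 1.77 ± 0.32 (adjusted p = 0.000741), as did NR4A2, an orphan nuclear receptor, by 1.43 ± 0.23 (adjusted p = 0.00026). FOS, the best-known gene of this class, did not pass, at 7.11 ± 1.06 in very-late and 6.45 ± 2.06 in late glands.

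Of the cell cycle inhibitors, CDKN1A, or p21, had 8.26, 7.88, 8.41 and 8.32 at the very-late stage, against 9.30, 9.42, 9.59 and 9.48 at the late stage and fell by 1.23 ± 0.18 (adjusted p = 0.000112). CDKN2A, the p16 and ARF locus, was at least 3.13-fold lower (adjusted p = 0.00147) on 1 of 3 probe sets, at background in very-late glands. GADD45B, a damage and inflammation response gene, rose by 1.44 ± 0.30 (adjusted p = 0.00242). Proliferation genes passed in 2 of 17, or 11.8%, beside 21.4% of all genes. They were TOP2A, a topoisomerase of dividing cells, at -1.19 ± 0.28 on 1 of 2 probe sets (adjusted p = 0.00668), and MCM2, of the replication helicase, at 0.53 ± 0.15 (adjusted p = 0.0209). MKI67 did not pass (-0.29 ± 0.26, adjusted p = 0.568).

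Signalling genes known from development included some of the larger falls. WNT5A, a secreted WNT, had 6.03, 5.06, 6.44 and 6.04 in the very-late arrays, against 8.50, 10.12, 10.13 and 9.38 in the late arrays. It fell by 3.64 ± 0.31 (adjusted p = 2.76e-07) on all 3 probe sets. Of the 21 measured genes of the WNT list, however, 3 fell and 1 rose, so 19.0% were called, near the 21.4% of all genes. Of these 21, 9 were not clearly above background at either stage. DKK3, counted among the falls, had 2 of 6 probe sets that fell and 3 that rose. ID4, an inhibitor of helix-loop-helix factors, had 6.95, 5.10, 6.11 and 6.85 at the very-late stage, against 10.34, 10.38, 10.03 and 9.61 at the late stage. It fell by 3.84 ± 0.30 (adjusted p = 1.07e-07). Of 14 genes of BMP signalling 3 fell and 1 rose (28.6% called), with 1 fall left without very-late replicates 1 and 2. IGFBP3, which binds insulin-like growth factors, had 8.15, 6.68, 8.17 and 7.36 in the very-late arrays, against 8.84, 8.73, 8.85 and 8.89 in the late arrays; its fall of 1.24 ± 0.37 (adjusted p = 0.031) did not pass in 6 of the 8 fits that left out 1 array, with adjusted p up to 0.112 without very-late replicate 2.

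Other large changes were in genes with roles outside the groups above. PBX3, a homeodomain factor, had 5.93, 3.85, 7.05 and 7.28 in the very-late arrays, against 10.97, 11.42, 11.48 and 11.05 in the late arrays, a change of -5.20 ± 0.56 (adjusted p = 3.78e-06) that became -4.48 without very-late replicate 2; of its 3 probe sets 2 fell and 1 rose. ATXN7, a subunit of a chromatin complex, had 7.14, 6.91, 7.47 and 7.85 at the very-late stage, against 12.0, 12.33, 12.61 and 12.32 at the late stage, with all glands of each stage close together, and fell by 4.97 ± 0.20 (adjusted p = 8.1e-11) on 2 of 3 probe sets. CYP3A4, whose symbol covers a family of similar steroid- and drug-oxidising P450 genes that the probe sets may not separate, had 5.93, 3.98, 7.51 and 7.22 in the very-late arrays, against 10.46, 11.13, 11.27 and 11.42 in the late arrays. All 4 of its probe sets fell, the one shown by 4.91 ± 0.59 (adjusted p = 1.33e-05), and the change was -4.18 without very-late replicate 2.

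SERPINA4, an inhibitor of kallikrein, had 6.26, 3.79, 6.94 and 7.63 at the very-late stage, against 10.50, 11.31, 11.12 and 10.85 at the late stage. It fell by 4.79 ± 0.91 (adjusted p = 0.00116) on 1 of 2 probe sets, and the change was -4.00 without very-late replicate 2. Its values at the 3 earlier stages were 4.29 to 10.20. TLCD4, a protein with a TLC domain, fell by 4.74 ± 0.46 on all 3 probe sets (adjusted p = 1.29e-06 for the one shown). CLIC5, an intracellular chloride channel protein, fell by 4.23 ± 0.45 (adjusted p = 3.6e-06) on 5 of 7 probe sets. The neuronal pentraxin NPTX2 fell by 4.20 ± 0.39 (adjusted p = 7.57e-07) and the paraoxonase PON3 by 3.97 ± 0.63 (adjusted p = 0.000225). The RNA-binding protein RBM12B fell by 4.04 ± 0.46 (adjusted p = 6.69e-06) on 1 of 2 probe sets. PSME3, an activator of the proteasome, had 3.94, 4.06, 4.38 and 4.57 in the very-late arrays, against 8.61, 8.07, 8.33 and 8.03 in the late arrays, so that it was at least 15.7-fold lower (adjusted p = 3.48e-09), on 1 of 3 probe sets. Of the 19 measured proteasome genes 3 fell and 1 rose, so 21.1% were called, near the 21.4% of all genes.

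Among the largest rises, SLAMF7, a receptor of leukocytes, had 8.49, 9.83, 9.36 and 8.14 in the very-late arrays, against 4.65, 4.88, 4.82 and 5.34 in the late arrays and rose by 4.03 ± 0.28 (adjusted p = 2.23e-08). DCP2, the enzyme that removes the cap of messages, rose by 4.03 ± 0.34 (adjusted p = 2.2e-07) on 3 of 6 probe sets. ADAMDEC1, a protease-like protein of macrophages and dendritic cells, had 9.08, 10.13, 8.59 and 8.61 at the very-late stage, against 3.72, 4.96, 5.62 and 6.69 at the late stage, with a wide late range, and rose by 3.85 ± 0.43 (adjusted p = 6.1e-06). SLA, an adaptor of blood cells, rose by 3.61 ± 0.26 (adjusted p = 4.42e-08). BLNK, an adaptor of B cells and macrophages, was at least 11.5-fold higher than a late level at background (adjusted p = 2.7e-08), while the B cell markers MS4A1 and CD79A stayed at background, and ARL11, a small GTPase, was at least 9.3-fold higher (adjusted p = 9.4e-09). Smaller rises were those of single members of cell marker lists. S100A4, a calcium-binding protein of motile cells, was the 1 of 10 fibroblast markers that rose, by 2.33 ± 0.27 (adjusted p = 1.03e-05). CAMP, an antimicrobial peptide of neutrophils, was at least 2.54-fold higher (adjusted p = 7.8e-06) and JCHAIN, the joining chain of secreted antibodies, at least 1.35-fold higher (adjusted p = 0.000972). LOC721819, which has no gene name in the annotation, fell by 4.16 ± 0.50 (adjusted p = 1.38e-05), a change of -4.87 without very-late replicate 4.

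Set over the 5 stages, the step before the very-late one varied between genes. STAR, INHA and EBP kept nearly level means up to the late stage, with late minus mid-late differences of 0.02 ± 0.38, -0.27 ± 0.50 and 0.09 ± 0.28. HSD3B2, HSD11B1, CTSS and MMP9 had differences of the same sign in that step as in the next, -2.05 ± 0.37, -1.69 ± 0.32, 1.84 ± 0.37 and 2.59 ± 0.43, none of them past the test. TREM2 differed by 0.29 ± 0.21 in that step, and TREM1 was not clearly above background at either of those stages. These differences share the late arrays with the changes given above and were not tested against them.

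**Figure D5:**
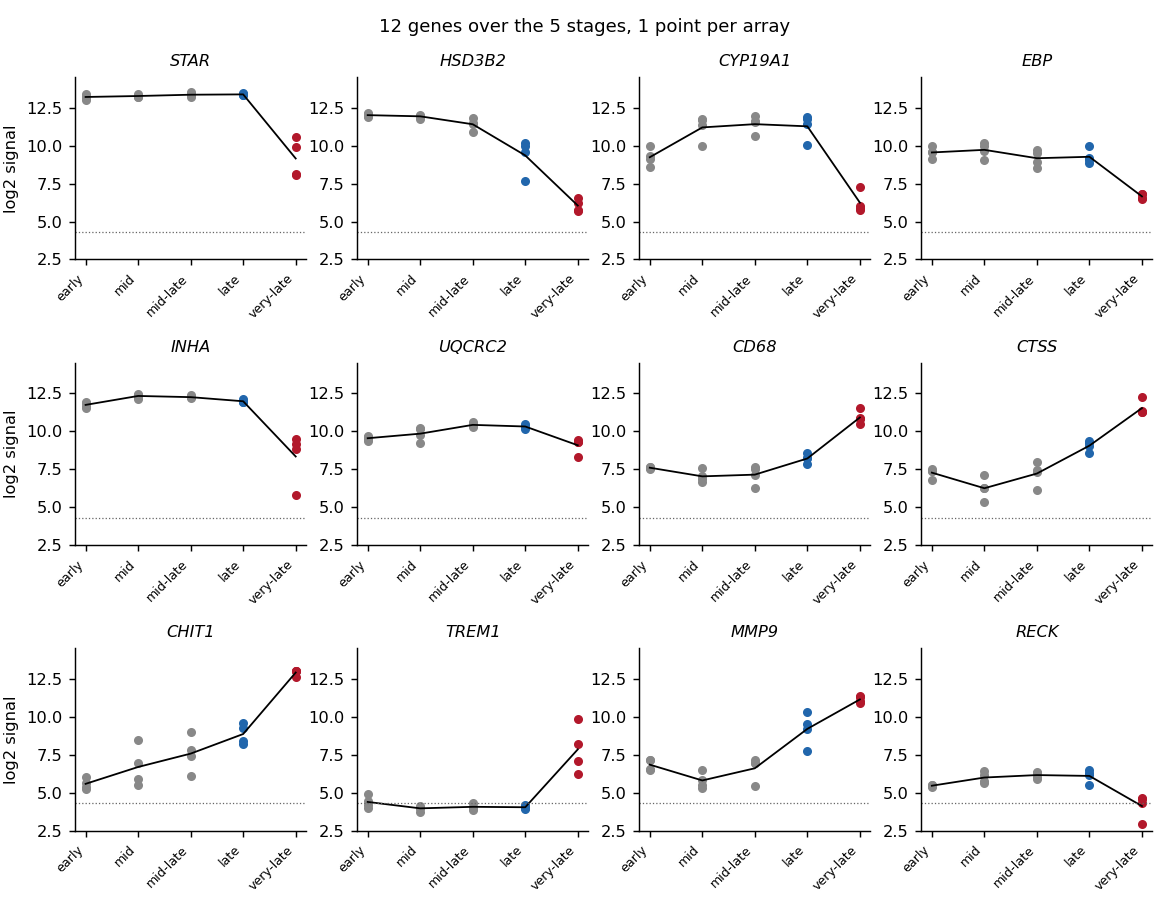
Each panel is 1 of 12 genes with the log2 signal of each of the 20 arrays against stage, from early to very-late; lines join stage means, late glands are blue, very-late glands red, and the dotted line is 4.29. STAR drops from a level course only at the very-late stage, HSD3B2 has a lower mean at the late stage too, and the means of MMP9 and CTSS are higher at each of the last 2 stages than at the one before.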

How the data were processed

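Gene expression was measured in 20 rhesus macaque corpora lutea on Affymetrix arrays, 4 at each of 5 stages. Per the labels' protocols, total RNA was extracted with Trizol and purified on RNeasy columns. The authors deposited log2 values for 52865 probe sets, made with RMA per the submitters' processing notes; its version and background settings are not given in the sources used here. Array medians were 3.88 to 3.98, and the number of arrays limits the precision.

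After 158 control probe sets were left out, 52707 were tested with limma 3.58.1 in R 4.3.3, as the very-late minus late contrast of 5 stage means, with Benjamini-Hochberg adjustment and a threshold of 0.05. No filter on low values was set. Each of 14132 genes was read from the brightest probe set, by mean over all arrays, that carried its symbol alone (6375 genes had several such probe sets); 361 probe sets with several symbols were left unnamed. The script was tested on simulated data.

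All 50 gene lists and their members were chosen with earlier results of these data known. The 8 arrays compared were taken by the stage in their titles. The rule named the 15 largest rises and 15 largest falls that passed, were at least 2-fold and did not overlap, up to 4 members of each list with the largest change past the same thresholds, and a set of textbook genes; the text leaves out some of them. The alternatives tried were the scaling, dim probe sets, probe sets per gene, the variance prior, array weights, a replicate block, a term for mitochondrial signal, the 8 arrays alone, stricter thresholds and leaving out arrays. Replicate numbers did not pair the arrays (correlations of same-numbered deviations were 0.023, 0.116, -0.085 and -0.073). The labels used here give no batch or scan date. P-values measure the spread between these samples.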

Additional observations from a re-analysis of the deposited data

Results flagged for a closer look

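In 19 of 284 sets of 4 values, 1 for each named gene and stage (6.69%), 1 array lay far from the other 3; chance flags about 1 in 20. At the very-late stage these were replicate 2 for CCR1 at 9.18, CDKN2A at 3.68, CTSS at 12.24 and DKK3 at 7.18. Very-late replicate 1 stood apart for CHIT1 at 12.58 and UQCRC2 at 8.31, replicate 3 for COL1A1 at 10.51 and replicate 4 for CYP19A1 at 7.29. At the late stage, replicate 1 stood apart for CD14 at 7.86, CYBB at 6.44, EGR2 at 6.71, HPGD at 7.26, IL1RN at 4.66, MAMU-DRA at 10.72, PGRMC1 at 10.60 and TNFRSF21 at 7.39. Late replicate 4 did so for GPNMB at 10.86 and TYROBP at 9.53, and late replicate 2 for PRDX2 at 9.37.

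Among whole-array measures, the correlation of late replicate 1 with the rest of its stage was 0.989, lower than for the other 3 late arrays. The mean over 6 mitochondrial-genome probe sets was 7.22 in very-late replicate 2 and 11.957 in late replicate 4, each apart from the other 3 arrays of its stage.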

How the results depend on the processing

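Against 7262 probe sets called as reported, a fit of the 8 arrays alone called 4574, of which 4274 were among the 7262, and a fit without very-late replicates 1 and 2 called 4704, of which 4164 were. Among the 14132 genes, 3326 were called with 1 probe set per gene and 3368 when probe sets of 1 gene were averaged. At least 2-fold changes numbered 2330, and 4373 probe sets had an adjusted p under 0.01. The cause was not tested, except that fewer samples or genes, or a stricter threshold, enter by construction. Leaving out 1 array at a time gave 5526 to 7457. Other scalings, the dim filter, the prior, weights and the mitochondrial term gave counts within 1.5 times; median centring gave 3018 rises and 3998 falls. With the replicate number as a replicate block 7084 were called, and 129 of 130 called named genes passed; no label says that a number marks a shared source, and FST did not pass (adjusted p = 0.0627). Of those 130, 123 passed in all 8 fits that left out 1 array, 123 on the 8 arrays alone and 116 without very-late replicates 1 and 2, where 25 moved by over 1.5 times, all to smaller changes. With probe sets averaged per gene, DKK3, a secreted WNT modulator, became 0.25 (adjusted p = 0.0768), against -1.09, and IFIT2, an interferon-response gene, became -0.085 (adjusted p = 0.746), against 1.03; both have probe sets called in opposite directions. Signal over background limits the genes given only as "at least" a fold.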

Other observations

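Several gene lists were not described above, and the shares of their members called stand beside 21.4% of all genes. Of 14 endoplasmic reticulum stress genes 4 rose and 1 fell (35.7%), and of 21 hypoxia and glycolysis genes 5 rose and 2 fell (33.3%). Of 13 autophagy genes 3 rose and 2 fell (38.5%). GPI, a glycolytic enzyme, fell by 1.40 ± 0.22 (adjusted p = 0.000243) on 1 of 3 probe sets. Without very-late replicates 1 and 2 the stress list held 1 rise and 0 falls and the hypoxia list 2 rises and 1 fall. Of 11 genes of the IGF system 4 fell and 1 rose (45.5%), with 2 falls without those arrays. Of 7 granulosa and follicle genes 4 fell and 0 rose (57.1%).

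Of 9 heat shock and chaperone genes 2 fell and 0 rose (22.2%), and of 6 B and plasma cell markers 2 rose and 0 fell (33.3%). Of 9 neutrophil markers (11.1%) and 5 mast cell markers (20.0%) 1 each rose and 0 fell. Of 4 erythrocyte and 9 surface epithelium markers none passed the limma test. Not clearly above background at either stage were 4 of the 9 neutrophil, 4 of the 5 mast cell and 5 of the 9 epithelium markers. For such genes a result short of the threshold says little. Of 10 fibroblast markers 1 rose and 1 fell (20.0%), the fall being THY1, a surface glycoprotein, by 1.39 ± 0.25 (adjusted p = 0.000902). FZD4, a WNT receptor also found on vessels, fell by 1.14 ± 0.25 (adjusted p = 0.00358). The 9 luteal peptide hormone genes, RLN2 among them, had no member past the test, and 5 of the 9 were not clearly above background at either stage.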
